A study of Mus musculus with 8 samples.

Results

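Glypicans are heparan sulfate proteoglycans that a lipid anchor holds on the cell surface and that enzymes can release, and they present Wnt, hedgehog, FGF and BMP ligands to their receptors. Astrocytes release glypican 4 and glypican 6, which recruit AMPA-type glutamate receptors containing the GluA1 subunit to young synapses. Chordin-like 1 is a secreted antagonist of bone morphogenetic proteins (BMPs) that astrocytes also release, and it is known for recruiting GluA2-containing receptors as cortical synapses mature. The genes described are the 6 glypican genes (Gpc1 to Gpc6) and Chrdl1, 7 genes chosen by family and matched by Ensembl identifier among 55417 gene rows. Of the 7, 6 passed the filter on low counts, as did 11781 genes in all. Gpc2 did not.

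The series compared astrocytes of cortex with astrocytes of subcortical tissue, flow sorted from WT mice at postnatal day 29. Each of 4 mice gave a cortical and a subcortical library, numbered by mouse. The main region test left this pairing out, and a fit with the mouse as a block was an alternative. Mice 1 and 4 were male and mice 2 and 3 female. The sources used here name no gate or reporter for the sort and no finer dissection. The library kit primes at the poly(A) tail and reads 3′ ends, so counts should depend little on the length of the transcript. Levels of different genes are set side by side on that basis. A count is a read, and the sources used here do not give molecular identifiers, so it may not stand for 1 transcript. Levels are in CPM, gene counts scaled to a common library total after TMM normalization, and every fold change is cortical over subcortical.

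Libraries held 3537852 to 4060891 gene counts in cortex and 2484717 to 3829804 in subcortical tissue. All 14 astrocyte markers were detected and tested, with 4 called higher and 3 lower in cortex, at a summed 36961 to 39250 CPM in cortical and 29497 to 31170 CPM in subcortical libraries. Markers of other cell types were present and also differed by region. Summed over 14 neuron markers, of which 3 of the 11 tested were called higher and 1 lower in cortex, levels ranged from 305 to 683 CPM in cortex, highest in cortical 4, and from 107 to 161 CPM in subcortical libraries. Summed over 12 oligodendrocyte lineage markers, of which 7 of the 11 tested were called lower in cortex, they ranged from 830 to 1337 CPM in cortex and from 2212 to 5564 CPM in subcortical libraries, highest in subcortical 1. In these lists and the astrocyte list the regions did not overlap (exact two-sided permutation p = 0.0286, the smallest possible with 4 against 4, 0.0667 adjusted over 7 marker lists). Within the neuron list Nrgn (mean 196 in cortex against 8.73 CPM) and Camk2a (86.4 against 5.97 CPM) were the largest parts of the cortical sum. Nefl (12.1 against 39.9 CPM) and Nefm (4.65 against 15.9 CPM) had higher means in subcortical tissue, as did Gad1, Gad2 and Slc32a1. The 10 microglial markers, 3 of 9 tested called higher in cortex, ranged from 173 to 379 against 128 to 212 CPM (exact permutation p = 0.114), mural and fibroblast markers from 557 to 1101 against 484 to 1353 CPM, and ependymal and choroid plexus markers from 68.2 to 151 against 115 to 759 CPM, with the highest value in subcortical 3. Endothelial markers stayed between 4.18 and 26.9 CPM, with Cdh5 and Tek at 0 counts throughout, as was the fibroblast marker Lum. Fewer cells of a type and less RNA per cell cannot be told apart in such bulk samples.

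Chrdl1 (ENSMUSG00000031283) was the member that separated the regions most. It stood at 88.1, 66.0, 104 and 108 CPM in cortical libraries 1 to 4 and at 2.497, 0.481, 3.15 and 2.79 CPM in subcortical libraries 1 to 4. The lowest cortical library thus lay far above the highest subcortical one, and cortical 2 was the low library of its region. In raw reads this was 1501 counts against 26. Means were 91.5 ± 19.0 and 2.23 ± 1.19 CPM (SD, n = 4), and the fitted fold was 38.6 (95% interval 23.2 to 64.1, log2 5.27, edgeR quasi-likelihood test, Benjamini-Hochberg adjusted p = 1.0e-09). By size this ranked 21st among 11781 tested genes for a rise in cortex.

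Within each mouse the ratio was large in the same direction. It was 35.3 in mouse 1 (95% counting interval 16.0 to 96.8), 33.1 in mouse 3 (17.3 to 72.8) and 38.7 in mouse 4 (20.9 to 81.3). In mouse 2 the subcortical library held 1 count, and the ratio of 137 has a counting interval of 24.4 to 5442. The spread among cortical libraries (coefficient of variation 20.8%) exceeded the 5.16% that counting alone would give. The neuron marker sum was also higher in cortical libraries, though not each of its genes was. It was highest in cortical 4 (683 CPM), and without that library the log2 fold change of Chrdl1 was 5.18. The other cortical libraries (305 to 360 CPM) were still above the subcortical ones (107 to 161 CPM). Leaving out cortical 4 thus did not remove the region difference in the neuron marker sum. The part that neuronal, microglial or oligodendrocyte RNA had in the Chrdl1 difference was not tested.

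Gpc6 (ENSMUSG00000058571), 1 of the pair of glypicans known for AMPA receptor recruitment, was the other member that rose in cortex. It stood at 54.6, 33.4, 49.99 and 68.9 CPM in cortical libraries 1 to 4, and at 10.4, 12.01, 22.7 and 29.8 CPM in subcortical libraries 1 to 4. The groups did not overlap, but cortical 2 and subcortical 4 came close to each other. Means were 51.7 ± 14.6 and 18.7 ± 9.19 CPM (SD, n = 4), a fitted fold of 2.71 (95% interval 1.69 to 4.35, log2 1.44 with SE 0.33, edgeR adjusted p = 0.0066). The ratio was 5.25 in mouse 1 (95% counting interval 3.46 to 8.29), 2.78 in mouse 2, 2.20 in mouse 3 and 2.31 in mouse 4, so that mouse 1 gave the largest. Without mouse 1 the log2 fold change was 1.22 and its call was lost (edgeR adjusted p = 0.076). Without cortical 4, the library with the highest neuron marker sum, it was 1.27 and called (edgeR adjusted p = 0.027). Leaving out that library did not remove the region difference in the neuron marker sum. The part of neuronal or other cells' RNA in the Gpc6 difference was not tested either.

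So 2 of the 6 tested members were called higher in cortical samples and 0 lower, where 3.42% of all tested genes were called higher and 3.39% lower. Those 2 were also the members whose regions did not overlap, which 12.2% of all tested genes showed in either direction and 6.54% with cortex higher. The family was chosen with earlier results of these data known, so these shares are a description and not a test of the family.

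**Figure D1:**
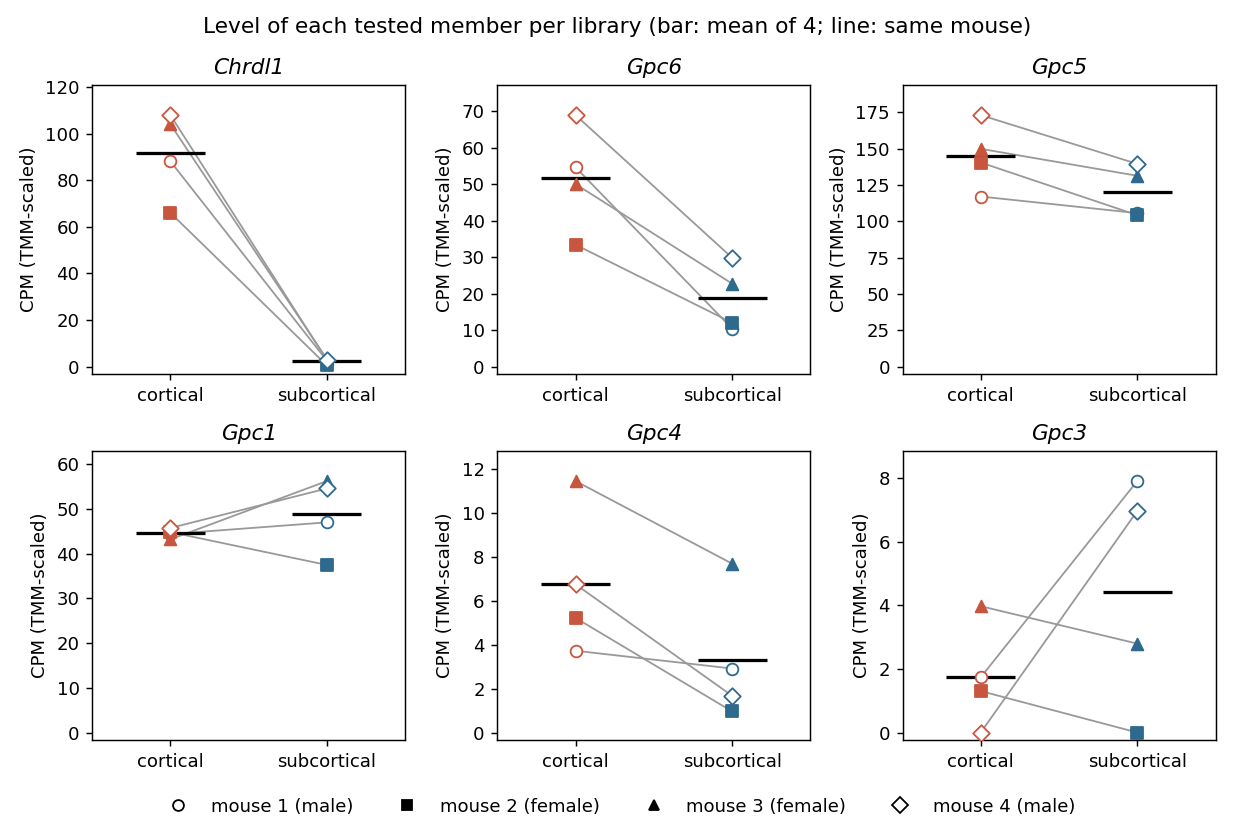
CPM (TMM-scaled, linear axes) of the 6 tested members in each library, cortical in red and subcortical in blue; grey lines join the libraries of 1 mouse, black bars are means of 4 and filled symbols are females. Chrdl1 falls from 66.0 to 108 CPM in cortex to at most 3.15 CPM, and Gpc6 is lower in the subcortical library of all 4 mice.

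Gpc4, the other released glypican of the pair, was a low transcript. It stood at 3.72, 5.21, 11.4 and 6.74 CPM in cortical libraries 1 to 4 and at 2.91, 0.961, 7.69 and 1.67 CPM in subcortical libraries 1 to 4, from 112 and 37 counts in all. Cortical libraries were higher in 4 of 4 mice, yet the regions overlapped, because subcortical 3 lay above cortical 1, 2 and 4. Mouse 3 was the highest animal in both regions. Subcortical 3 also had the highest ependymal and choroid plexus marker sum (759 CPM), whose part here was not tested. Without that library the log2 fold change of Gpc4 was 1.85 and not called (edgeR adjusted p = 0.30). Means of 6.78 ± 3.35 and 3.31 ± 3.03 CPM (SD, n = 4) gave an estimate of 1.02 on the log2 scale (SE 0.77, 95% interval -0.58 to 2.61, edgeR adjusted p = 0.57). The interval contains both 0 and the estimate for Gpc6. The coefficient of variation between libraries, 49.3% in cortex and 91.6% in subcortical tissue, was above the 18.9% and 32.9% that counting alone gives. In mouse 2 the ratio rested on 20 against 2 counts (5.43, 95% counting interval 1.32 to 47.9), and in mouse 1 it was 1.28 (0.49 to 3.70).

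Gpc5, a glypican known to be expressed by astrocytes, had the highest level of the family in every library. It stood at 117, 141, 150 and 173 CPM in cortical libraries 1 to 4 and at 106, 104, 131 and 140 CPM in subcortical libraries 1 to 4. The cortical library was the higher one in 4 of 4 mice, by ratios of 1.11 to 1.35, while the ranges of the regions overlapped. Means were 145 ± 23.2 and 120 ± 17.9 CPM (SD, n = 4), and the log2 fold change of 0.27 (SE 0.18, 95% interval -0.11 to 0.65) was not called (edgeR adjusted p = 0.51). The upper bound of that interval is a fold of 1.57.

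Gpc1, which carries heparan sulfate chains that bind FGF and Slit proteins, was nearly level. Cortical libraries 1 to 4 stood at 44.4, 44.8, 43.2 and 45.8 CPM and subcortical libraries 1 to 4 at 47.0, 37.5, 56.3 and 54.6 CPM. The cortical values sat inside the subcortical range. Means were 44.6 ± 1.06 and 48.8 ± 8.58 CPM (SD, n = 4), the log2 fold change was -0.14 (SE 0.23, 95% interval -0.60 to 0.33, edgeR adjusted p = 0.84), and cortex was lower in 3 of 4 mice. The coefficient of variation of 2.37% over cortical libraries is smaller than the 7.42% that counting error alone gives at this depth, against 17.6% over subcortical libraries.

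Gpc3, an inhibitor of hedgehog signalling whose human counterpart is lost in an overgrowth syndrome, was found in some libraries and not in others. Cortical libraries 1 to 3 held 7, 5 and 17 counts and cortical 4 held 0. Subcortical libraries 1, 3 and 4 held 19, 8 and 25 counts and subcortical 2 held 0. A count of 0 allows up to 0.723 CPM in cortical 4 and 1.44 CPM in subcortical 2. The mouse 4 pair therefore ran from at most 0.723 CPM in cortex to 6.97 CPM below it. In mouse 2 the cortical value of 1.30 CPM lay under what the 0 of its subcortical library allows, and in mouse 3 the ratio of 1.42 had a counting interval of 0.58 to 3.80, so neither gave a direction. Means of 1.75 ± 1.65 and 4.42 ± 3.69 CPM (SD, n = 4) gave an estimate of -1.33 on the log2 scale (SE 1.07, 95% interval -3.55 to 0.90, edgeR adjusted p = 0.60).

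Gpc2, a glypican of developing neurons, had 2 counts in subcortical 1 and 0 counts in the other 7 libraries. In cortical libraries a count of 0 allows between 0.701 and 0.782 CPM, so expression above that level was not seen, and no fold is given.

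**Figure D2:**
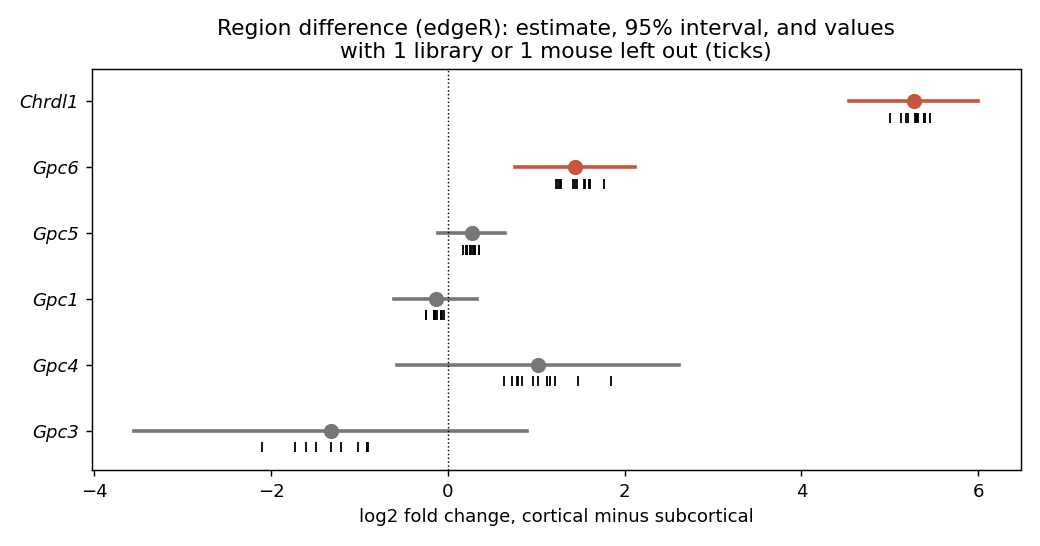
Log2 fold change (cortical minus subcortical, edgeR) of the 6 tested members with its 95% interval, red where the adjusted p is under 0.05; black ticks below each are the estimates with 1 library or 1 mouse left out. Chrdl1 (5.27) and Gpc6 (1.44) lie clear of 0, and the intervals of Gpc5, Gpc1, Gpc4 and Gpc3 include it.

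By mean level the members in cortex ran from Gpc5 through Chrdl1, Gpc6, Gpc1, Gpc4 and Gpc3 to Gpc2. The ranges of Gpc6 (33.4 to 68.9 CPM) and Gpc1 (43.2 to 45.8 CPM) overlapped there, as did those of Chrdl1 and Gpc6 by a small margin, and of Gpc4 and Gpc3. In subcortical tissue the order was Gpc5, Gpc1, Gpc6, Gpc3, Gpc4, Chrdl1 and Gpc2, and Gpc3, Gpc4 and Chrdl1 were within each other's ranges. Chrdl1 moved from above Gpc6 to the end of the detected members.

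Summed over the 6 glypicans, levels were 250 ± 34.1 CPM in cortex and 196 ± 37.0 CPM in subcortical tissue (SD, n = 4), with overlapping ranges of 222 to 295 and 155 to 233 CPM. Gpc5 made up 58.0 ± 3.93% of glypican counts in cortex and 61.8 ± 3.72% in subcortical tissue. The share of Gpc6 was 24.6, 14.8, 19.3 and 23.4% in cortical libraries 1 to 4 and 5.95, 7.76, 10.3 and 12.8% in subcortical libraries 1 to 4. Gpc1 took the larger share in subcortical tissue, 23.5 to 26.9% against 15.5 to 20.04%. In cortex Gpc6 and Gpc1 were thus about equal parts of the family, whereas Gpc1 exceeded Gpc6 in each subcortical library. Shares are given as a description, since they follow from the levels above.

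**Figure D3:**
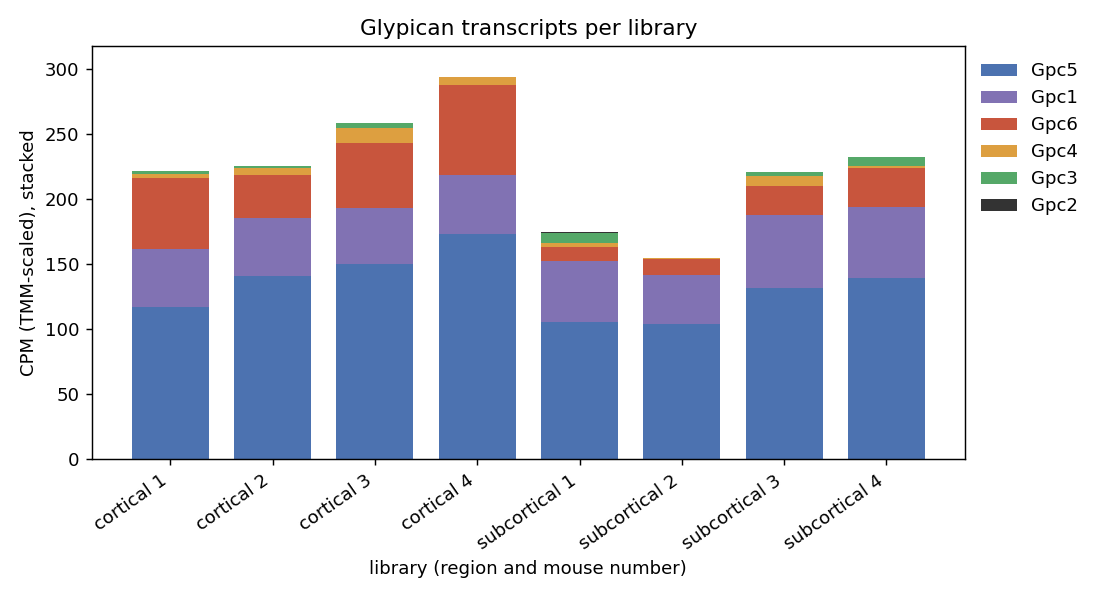
Stacked bars of the CPM (TMM-scaled) of the 6 glypican genes in each of the 8 libraries, labelled by region and mouse number. Gpc5 is the largest part in all 8 libraries, and the Gpc6 part is 33.4 to 68.9 CPM in cortical and 10.4 to 29.8 CPM in subcortical libraries.

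Of the 6 glypican genes 4 lie in adjacent pairs in the GENCODE vM21 annotation, which is of another build than the files and is used here for names and neighbours. Gpc5 and Gpc6 are adjacent protein-coding genes on chromosome 14 and Gpc4 and Gpc3 are adjacent on X, which also carries Chrdl1 between Rtl9 and Pak3. Gpc1 on chromosome 1 and Gpc2 on chromosome 5 have no glypican neighbour. Of the adjacent pair Gpc6 rose in cortex (log2 fold change 1.44) and Gpc5 was not called (0.27), and the estimates for Gpc4 and Gpc3 (1.02 and -1.33) had opposite signs, neither of them called. Annotated genes that overlap a member on either strand, such as Ankmy1 at Gpc1, had 0 counts in all 8 libraries. The sources used here do not say whether the authors' counting used strand or how it treated reads shared between genes. Reads classed as ambiguous, 0.384 to 0.548% of each library, were left out of gene counts. Whether shared reads were added to a member or left out of it is therefore not known.

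Genes whose profile over the 8 libraries came closest to a member were found by the root mean square difference of centred log2(CPM + 1) values, among 7978 genes with a symbol and a mean of at least 10 CPM. For Chrdl1 they were Fezf2, a zinc finger transcription factor gene (difference 0.36, levels 36.7 ± 12.8 and 0.435 ± 0.351 CPM), and Lypd6, a gene of the Ly6 family (0.48, 31.1 ± 14.1 and 0.174 ± 0.208 CPM). For Gpc6 they were Scrg1 (0.21, 200 ± 52.2 and 90.4 ± 38.2 CPM) and Tank (0.29, 45.3 ± 12.6 and 16.1 ± 5.75 CPM), each as mean ± SD of 4 cortical and 4 subcortical libraries. Gpc5 was closest to Ndufa10 and Ei24 (0.098 and 0.10), and Gpc1 to Sel1l and Lbh (0.084 and 0.096). For the sparse members the nearest profiles were farther, with 0.38 and 0.39 for Gpc4 (Arhgap18 and Wdr83) and 0.42 and 0.53 for Gpc3 (S100a10 and Actn1).

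No member was called by sex. Tests of female minus male had 2 libraries a side in each region and called 4 genes (0.0340%) in cortex and 3 (0.0255%) in subcortical tissue with edgeR, and 0 of the 6 tested members in either, with 0 of the 6 at an unadjusted p under 0.05 and 0 called by limma-voom. For Gpc6, both cortical males (54.6 and 68.9 CPM) lay above both females (33.4 and 49.99 CPM), a log2 difference of -0.57 (95% interval -1.498 to 0.37, edgeR adjusted p = 0.999), and in subcortical tissue the sexes overlapped. Chrdl1 had a female minus male log2 fold change of -0.21 (95% interval -0.999 to 0.59) in cortex and -0.43 (-1.83 to 0.98) in subcortical tissue. In subcortical libraries Gpc3 stood at 7.91 and 6.97 CPM in males and at 0 and 2.80 CPM in females, and in cortex the order of the means was the opposite. The difference between those sex effects had a log2 value of 3.88 (SE 2.21, edgeR unadjusted p = 0.0955, adjusted p = 0.9999). The interaction of sex and region called 0 of 11781 genes with edgeR (0.00%), with 403 at an unadjusted p under 0.05, and 0 with limma-voom.

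The remaining results are for genes that release, build, bind or work beside the members. Their lists were also chosen with earlier results of these data known. Counts of calls beside the share over all tested genes are therefore a description. Levels there are means ± SD in CPM, the 4 cortical libraries first, and adjusted p-values are those of edgeR. Enzymes known to cut glypicans or the lipid anchor had 1 of 9 tested members higher and 1 lower in cortex, 2 of 9 beside 6.81% of all tested genes called in either direction, with a median log2 fold change of 0.14 against -0.01 over all genes. Gpld1, a phospholipase that cleaves the anchor, was lower (209 ± 33.5 against 341 ± 18.9 CPM, log2 fold change -0.70, adjusted p = 0.0081). That call was lost without mouse 1 (0.065) or mouse 3 (0.068). The proprotein convertase gene Furin was higher (52.3 ± 6.61 against 29.8 ± 5.44 CPM, adjusted p = 0.046), a call lost with no filter on low counts, without any 1 of the cortical libraries, without subcortical 1, 2 or 4 and without any 1 mouse, where the adjusted p lay between 0.0501 and 0.165. Adamts4, which encodes a protease reported to free glypican 4, and Gdpd5 had estimates of -1.43 and -1.66 that were not called (adjusted p = 0.18 and 0.21). Notum, which encodes a glypican-shedding and Wnt-inactivating hydrolase, had 16 counts in cortex and 0 in subcortical libraries and was not tested.

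Of 17 tested genes that build or edit heparan sulfate, 2 were lower and 0 higher in cortex (median log2 fold change -0.24). Over all tested genes 6.81% were called in either direction. Extl1, a gene of the exostosin family that elongates the chain, was lower, at 38.2 ± 17.1 against 133 ± 33.6 CPM (log2 -1.80 with SE 0.26, adjusted p = 8.4e-05). Sulf2, a sulfatase that removes sulfate from the chains outside the cell, stood at 5.19 ± 3.68 against 19.8 ± 5.99 CPM (adjusted p = 0.049). It was not called without cortical 1, 3 or 4, without subcortical 1, 2 or 4 or without any 1 mouse (adjusted p of 0.052 to 0.204). The chain-starting xylosyltransferase gene Xylt1 and the polymerase gene Ext2 had estimates of -0.61 and -0.64 and were not called, though Xylt1 was called without cortical 2 (adjusted p = 0.028) and without mouse 2.

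Of 8 tested genes for other heparan sulfate proteoglycan cores, 2 were lower and 0 higher in cortex (median -0.67, with 6.81% of all tested genes called). Oligodendrocyte lineage marker sums were lower there as well (830 to 1337 against 2212 to 5564 CPM), and their part in these values was not tested. Sdc3, the syndecan of the nervous system, stood at 71.4 ± 10.3 against 237 ± 34.97 CPM (log2 -1.73 with SE 0.18, adjusted p = 7.8e-07). Sdc4, a syndecan of adhesion sites, stood at 188 ± 67.0 against 342 ± 58.3 CPM (adjusted p = 0.013), and was not called without cortical 1 (0.058), mouse 1 (0.164) or mouse 2 (0.076). Sdc2 and Tgfbr3 were not called (estimates -0.50 and -1.13). In subcortical libraries Sdc3 was therefore above every glypican, and in cortex it was below Gpc5.

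Partners of glypican 4 and AMPA receptor genes had 1 of 9 tested members higher and 3 lower (median 0.31, with 6.81% of all tested genes called). Gria1, the gene of the GluA1 subunit, stood at 159 ± 29.4 against 600 ± 94.8 CPM (log2 -1.92 with SE 0.18, adjusted p = 1.7e-07). Gria2, the gene of the GluA2 subunit, stood at 562 ± 46.4 against 417 ± 124 CPM and was not called (log2 0.43, adjusted p = 0.22). These are transcript levels in the sorted samples and not receptors at synapses. Gria4, the gene of the GluA4 subunit, had 4 counts in cortex and 160 in subcortical libraries (adjusted p = 0.00041). Ptprd, a receptor phosphatase through which glypican 4 is known to act on neurons, stood at 87.0 ± 11.8 against 167 ± 11.8 CPM (adjusted p = 0.0011). Nptxr, the neuronal pentraxin receptor gene, was higher (29.01 ± 9.68 against 6.79 ± 5.20 CPM, adjusted p = 0.0056). It is a gene known from neurons, as are Nptx1 and Nptx2, with 59 and 31 counts in cortex and 0 in subcortical libraries. Neuron marker sums were higher in cortex too (305 to 683 against 107 to 161 CPM), and oligodendrocyte lineage marker sums were lower there (830 to 1337 against 2212 to 5564 CPM), as were Gria1, Gria4 and Ptprd. The part of either in these values was not tested.

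Among BMP antagonists and the proteases that process chordin, 0 of 8 tested genes were called by edgeR, beside 6.81% of all tested genes. In that list 4 genes had an unadjusted p under 0.05, and the median log2 fold change was -0.44. The closest relatives of Chrdl1 were scarce. Chrd had 38 and 27 counts over the 4 cortical and 4 subcortical libraries (means of 2.31 and 2.62 CPM), and Chrdl2 had 0. Bmper, which encodes a BMP-binding protein with the same cysteine-rich repeats as chordin, stood at 17.3 ± 9.08 against 4.04 ± 5.44 CPM (adjusted p = 0.088). Blocking on the mouse brought Bmper (log2 2.66, adjusted p = 0.016) past the threshold, and Crim1, a transmembrane BMP-binding protein gene (-0.79, adjusted p = 0.048, against 0.070 unblocked). DESeq2 called both, as did edgeR with no filter on low counts, and limma-voom called Crim1. Both were called without cortical 2, Bmper also without subcortical 1 or mouse 1 and Crim1 without mouse 2, with an estimate for Bmper of 2.43 without cortical 2 and 3.59 without subcortical 1. Fstl1 and Bmp1, which encodes a protease that cleaves chordin, had estimates of -0.53 and -0.52 and were not called. At a mean of 91.5 CPM in cortex Chrdl1 was above the means of all 8 tested genes of this list. At a mean of 2.23 CPM in subcortical tissue it was below the means of all 8. The ranges of Chrdl1 (66.0 to 108 CPM) and Crim1 (33.7 to 87.1 CPM) nevertheless overlapped in cortex. In subcortical tissue the range of Chrdl1, 0.481 to 3.15 CPM, lay within that of Bmper, 0.481 to 12.1 CPM, whose mean rests on subcortical 1. It also touched that of Bambi, 2.80 to 13.5 CPM.

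BMP ligands, receptors and readout genes had 2 of 19 tested members higher and 1 lower (median -0.32, with 6.81% of all tested genes called). Bmp7, a BMP ligand gene, was higher in cortex (52.2 ± 7.87 against 25.4 ± 3.01 CPM, log2 fold change 1.04, adjusted p = 0.0087), and lost its call without mouse 2 (0.068). Id4, an inhibitor of DNA binding that BMPs can induce, was higher as well (577 ± 104 against 199 ± 59.5 CPM, log2 1.53 with SE 0.21, adjusted p = 2.8e-05). Smad7, an inhibitory Smad gene, was lower (3.70 ± 2.53 against 14.9 ± 7.37 CPM, adjusted p = 0.037). Its call was lost with limma-voom, without cortical 2, 3 or 4, without subcortical 1 or 2 and without any 1 mouse (adjusted p of 0.058 to 0.245). Id3 had an estimate of -0.62 (adjusted p = 0.052, and 0.032 when blocked on mouse), and was called by DESeq2 and limma-voom, with no or a stricter filter on low counts, with sex as a covariate and without subcortical 2 or mouse 2. Id1 and Id2 had estimates of -0.52 and -0.42 and were not called (adjusted p = 0.26 and 0.18). Among the Id genes Id4 was thus higher in cortex, while the estimates of Id1, Id2 and Id3 were negative and uncalled in the main fit.

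Receptors and other ligand-side genes for the Wnt, hedgehog, FGF and Slit proteins that glypicans bind had 2 of 22 tested members higher and 4 lower (median -0.19). The share called over all tested genes was 6.81%. Among the 4 with the smallest p, the Wnt receptor gene Fzd10 was lower (34.2 ± 5.95 against 169 ± 40.6 CPM), as were the hedgehog receptor gene Ptch1 (289 ± 34.8 against 655 ± 77.0 CPM) and the hedgehog co-receptor gene Boc (61.1 ± 10.4 against 119 ± 22.7 CPM). The Wnt receptor gene Fzd2 was higher (498 ± 31.6 against 249 ± 59.9 CPM).

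Other astrocyte factors that act on synapses had 4 of 18 tested members higher and 3 lower (median -0.10, with 6.81% of all tested genes called). On the log2 scale Mertk, a phagocytic receptor gene, was higher by 1.75 and Ptn, the pleiotrophin gene, by 1.05. Sparc, a secreted antagonist of synapse formation, fell by 1.63 and Thbs2, a thrombospondin gene, fell by 3.00. The thrombospondin gene Thbs4, named after its values were seen, had an estimate of 5.26 close to that of Chrdl1 (5.27), but from 146 against 2 counts (SE 1.10, adjusted p = 0.0035).

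**Figure D4:**
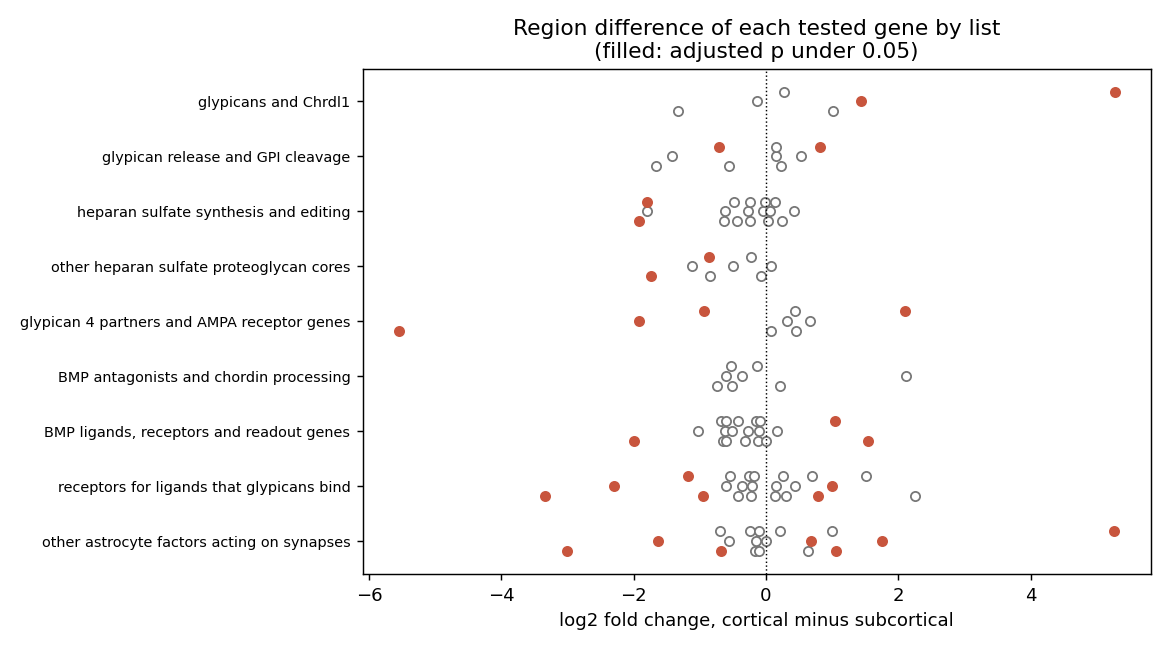
Log2 fold change (cortical minus subcortical, edgeR) of each tested gene, 1 row of points a list with vertical offsets for legibility only; filled red points have an adjusted p under 0.05. The glypican and Chrdl1 row holds 2 filled points, both above 0, and the row of other proteoglycan cores holds 2, both below 0.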

How the data were processed

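Sequencing libraries of sorted astrocytes (4 cortical, 4 subcortical) were made with a forward QuantSeq 3′ kit, per the labels' protocols. DESeq2 1.35.0, HTSeq 0.9.0, STAR 2.6.0, FastQC 0.11.5 and the build GRCm39 are listed in the submitters' processing notes. The sources used here do not give strand, molecular identifiers or annotation release. The authors deposited raw gene counts per sample, which were used unchanged. The 5 HTSeq summary rows stayed out of library sizes; reads without a feature were 30.2 to 40.7% and ambiguous ones 0.384 to 0.548% of each library. A table of 8 normalized columns whose names match no sample label was not used.

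Region was tested with edgeR 4.0.16 in R 4.3.3 (TMM; quasi-likelihood; filterByExpr with a size-scaled minimum of 10 counts in 4 libraries and a total of 15; Benjamini-Hochberg over all tested genes at 0.05). That fit held region only and did not pair the libraries by mouse. Standard errors and 95% intervals come from the F statistic. Sex was tested in 1 fit with a mean per sex and region. Scripts were tested on simulated data. Alternatives were DESeq2 1.42.0, limma-voom 3.58.1, other size factors and filters, a mouse block, a sex covariate and leaving out each library or mouse. Counting intervals of ratios are exact binomial; they and the floor of 3 counts cover counting error only.

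The members and lists were chosen with earlier results of these data known. Named are all members, up to 4 genes per list with the smallest p and the 2 closest profiles per member; other list genes named, such as Notum, Nptx1, Nptx2, Chrd and Chrdl2, were picked after their counts were seen. Mouse numbers in the titles pair the samples, as both came from 1 animal; deviations from region means correlated at 0.0247 to 0.0656 over genes within a mouse and at -0.0935 to 0.0522 between mice. Chi-square tests found no pair within a region that agreed within sampling noise (12.1 to 24.7 per degree of freedom). Protein and promoter sequences of the members that rose are not printed here.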

Additional observations from a re-analysis of the deposited data

Results flagged for a closer look

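Of 28 sets of 4 libraries examined (7 members and 7 marker sums in each region), 4 held a library far from the other 3, judged by its gap to the nearest of the others over the whole range; chance flags about 1 set in 20. For Gpc2 in subcortical tissue the ratio was 1, because subcortical 1 held 2 counts and the others 0. The astrocyte marker sum of cortical 2 (39250 CPM) stood above the other cortical libraries with a ratio of 0.921. The neuron marker sum of cortical 4 (683 CPM against 305 to 360 CPM) had a ratio of 0.856. The ependymal and choroid plexus sum of subcortical 3 (759 CPM against 115 to 139 CPM) had a ratio of 0.963. Without cortical 4 the log2 fold changes of Chrdl1 and Gpc6 were 5.18 and 1.27, and without subcortical 3 they were 5.45 and 1.54. All 4 of these values were called.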

How the results depend on the processing

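Chrdl1 kept its direction and call under all 19 alternatives (log2 fold change 5.003 to 5.45, largest adjusted p 0.00045 with limma-voom), and Gpc6 under 18 of 19 (1.22 to 1.76, called except without mouse 1). Gpc1, Gpc4 and Gpc5 stayed uncalled with the same sign under all 19, from -0.24 to -0.05, 0.64 to 1.85 and 0.17 to 0.36. Gpc3 did so under the 16 in which it was tested (-2.10 to -0.91), having failed the low-count filter of 5 CPM and those without mouse 3 or 4. Called genes numbered 802 and, with the mouse as a replicate block, 885; without single libraries or mice they were 474 (without mouse 1; the cause was not tested) to 775. Without single libraries the lists gave 1 to 2 calls for glypican release, 1 to 3 for heparan sulfate synthesis, 1 to 2 for other cores, 4 to 6 for glypican 4 partners, 0 to 2 for BMP antagonists (2 with the block), 2 to 4 for BMP ligands and readouts, 5 to 7 for receptors and 5 to 8 for synaptic factors. Among the members and the 4 genes a list with the smallest p, the block changed the calls of Bmper, Crim1 and Id3, and no other. Sex tests called 4 genes in cortex and 3 in subcortical tissue, 3 to 5 and 3 to 4 without single libraries, where a lone library was assumed to vary like the others, and 1 and 1 with limma-voom. On raw library totals the microglial marker difference was 117 CPM (exact permutation p = 0.0286) in place of 87.8. Gpc2, Gpc3 and Gpc4 rest on few counts (cortical and subcortical totals of 0 and 2, 29 and 52, and 112 and 37), and for Gpc3 and Gpc4 the spread between libraries was also above counting error.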
